A study of Mus musculus with 6 samples.

Results

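The Krüppel-like factors Klf2, Klf3, Klf4, Klf5, Klf6, Klf9, Klf10 and Klf15 were followed in smooth muscle of the fetal mouse aorta. They were picked by gene symbol as the members with a described role in smooth muscle. All 8 were found once each among the 37309 genes of the table, and 9 further Klf genes in it were set beside them. The cells were vascular smooth muscle from descending aortas of embryos at day 14.5, and their RNA gave 6 sequencing libraries in 3 groups of 2. The wildtype libraries (WT) were Jag1 lox/lox without Cre recombinase. The heterozygous libraries (HZ) were Jag1 lox/+ with Cre, and the knockout libraries (KO) were Jag1 lox/lox with Cre. Against wildtype, Cre therefore changed along with the Jag1 genotype, whereas knockout and heterozygous libraries both carried it. The series' design text places the deletion in smooth muscle cells, but the labels do not name the promoter that drove Cre, the deleted exons or the sex of the embryos, nor do they say whether replicates came from separate embryos, so p-values measure the spread between these libraries, which may be technical.

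Krüppel-like factors are zinc finger proteins that bind GC-rich letters and CACCC boxes in promoters. Some of them mainly activate and others mainly recruit corepressors, and several compete for the same boxes. In smooth muscle, Klf4 is known for binding near contractile genes and lowering the output of myocardin and serum response factor. Klf5, also called BTEB2 or IKLF, was described in rabbit as a factor of fetal and injured arteries that binds the promoter of the embryonic myosin heavy chain gene Myh10. Klf2 is known from endothelium under flow, where the kinase ERK5 and MEF2 factors switch it on, and mice without it have fetal vessels with a deficient smooth muscle coat. Klf3 binds the corepressor CtBP. Klf6 is an early gene of vascular injury, Klf9 and Klf15 respond to glucocorticoid, and Klf10 was found as an early gene of TGF-beta.

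The bases before the start of a gene are shown for Klf2, Klf3 and Klf4, because CACCC boxes are letters that the family itself binds and because a MEF2 box is the known entry of the ERK5 arm into Klf2. The sequences are from RefSeq, build GRCm38.p6, and cover the 250 bases before the annotated start, 5′ to 3′ on the strand of the gene. Of the 8 genes, 6 had an entry, all but Klf5 and Klf10. Capitals mark CCACCC or its reverse complement GGGTGG, and the MEF2 pattern CTANNNNTAG. The shorter CACCC was not searched for, and where another letter precedes it, it is neither marked nor counted. The windows are chr8:72318812-72319061 on the plus strand for Klf2, chr5:64803271-64803520 on the plus strand for Klf3 and chr4:55532476-55532725 on the minus strand for Klf4.
Klf2: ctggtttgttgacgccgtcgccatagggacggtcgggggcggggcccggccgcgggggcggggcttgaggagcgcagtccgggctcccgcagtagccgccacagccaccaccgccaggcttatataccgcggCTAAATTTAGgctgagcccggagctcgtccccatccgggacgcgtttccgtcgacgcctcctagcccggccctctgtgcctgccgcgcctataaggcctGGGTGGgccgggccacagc
Klf3: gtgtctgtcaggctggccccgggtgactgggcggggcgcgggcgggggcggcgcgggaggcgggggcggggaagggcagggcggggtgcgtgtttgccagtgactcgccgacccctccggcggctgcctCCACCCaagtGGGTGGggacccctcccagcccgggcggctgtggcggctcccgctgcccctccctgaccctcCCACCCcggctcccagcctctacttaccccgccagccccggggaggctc
Klf4: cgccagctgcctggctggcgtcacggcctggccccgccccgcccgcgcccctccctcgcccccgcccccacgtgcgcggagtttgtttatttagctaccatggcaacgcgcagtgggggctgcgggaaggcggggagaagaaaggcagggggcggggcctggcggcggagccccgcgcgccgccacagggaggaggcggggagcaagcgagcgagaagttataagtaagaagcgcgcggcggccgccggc
The Klf2 window held the MEF2 pattern once, as CTAAATTTAG beginning 118 bases before the start. It also held 1 CCACCC, as GGGTGG, beginning 19 bases before the start, and 2 GC boxes. Of 32851 windows of the same length in the same RefSeq table, 3.2% held CTANNNNTAG and 28.1% held CCACCC on either strand. GC boxes are the letters GGGCGG on either strand. The Klf3 window held CCACCC on either strand 3 times and 6 GC boxes, none overlapping a CCACCC match. The Klf4 window held 4 GC boxes and no CCACCC or MEF2 pattern, so it has no capitals. GGGCGG was in 32.7% of all windows. Among the other 3 windows, that of Klf6 held 1 GC box, that of Klf15 held 1 and that of Klf9 held none. None of the 3 held CCACCC on either strand or the MEF2 pattern. These matches describe letters and say nothing of binding in these cells.

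Reads in genes ranged from 17323962 to 28123670 per library. The deposited values were these counts divided by 1 factor per library and are called scaled read counts. Jag1 itself was at 1965 and 1885 in wildtype, at 492 and 584 in heterozygous and at 19.9 and 35.4 in knockout libraries. Transcript of the Y-linked Ddx3y was at 1102 and 1207 in wildtype and 973 and 999 in heterozygous libraries, and at 5.44 and 12.2 in knockout libraries, so that sex makeup moved with the knockout group. The defining smooth muscle genes were abundant in every library, Acta2 at 79073 to 120179 and Tagln at 48281 to 60625. Between the 2 libraries of a group, the median absolute log2 difference over genes was 0.0986 for wildtype, 0.0927 for heterozygous and 0.208 for knockout, so the knockout libraries were the least alike. Differences between groups were tested for 15781 genes with limma on log2(value + 1), all 6 libraries in 1 fit, and a gene passed at an adjusted p under 0.05 over all of them. Log2 changes are on that scale and given ± SE.

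All 8 genes passed the filter on low values and were detected in every library. Levels between genes are compared here as scaled read counts per kilobase, with the gene length deposited in the table. In wildtype, Klf6 stood far above the others at 1824 and 1940 per kilobase. Klf3 followed at 459 and 440, Klf4 at 436 and 423, and Klf2 at 423 and 342. Klf9 was at 247 and 276, Klf10 at 217 and 219, Klf5 at 175 and 133, and Klf15 at 7.44 and 6.60. The ranges of neighbours in this order did not overlap, but those of Klf3, Klf4 and Klf2 were separated by less than the gap between the Klf2 libraries. The median of tested genes was 90.8 per kilobase, and 97.2% of them were below Klf6, 62.9% below Klf5 and 9.25% below Klf15. Klf6 therefore made up 46.2% to 51.3% of the summed level per kilobase of the 8 genes in the 6 libraries. In heterozygous libraries Klf2 (478 and 458) stood above Klf4 (375 and 367), the reverse of wildtype. In knockout Klf5, at 558 and 348 per kilobase, stood below Klf6 and Klf3 by its mean, and its range overlapped those of Klf3 (584 and 432), Klf4 (481 and 387) and Klf2 (450 and 320). The knockout means of Klf10 and Klf9 were 229 and 228 per kilobase, in the reverse of their wildtype order, with overlapping ranges. The share of Klf5 in the sum was 4.63% and 3.52% in wildtype, 4.22% and 4.59% in heterozygous, and 11.6% and 8.93% in knockout libraries.

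**Figure D1:**
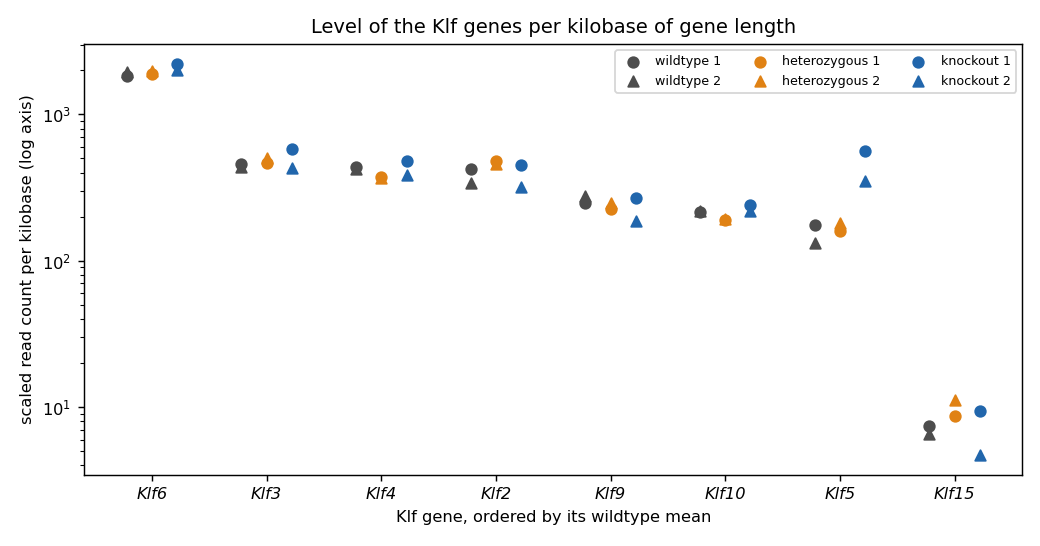
Scaled read count per kilobase of gene length (log axis) of the 8 Klf genes in each library, ordered by the wildtype mean; circles are replicate 1 and triangles replicate 2. Klf6 lies above and Klf15 below all others in every group, and Klf5 moves from 175 and 133 in wildtype to 558 and 348 in knockout.

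Klf5 rose in knockout libraries and was the only one of the 8 genes to pass the test. Its scaled read count was 302 and 229 in wildtype (265 ± 51.6, SD, n = 2), 276 and 313 in heterozygous (294 ± 26.2) and 960 and 599 in knockout libraries (779 ± 255). Both knockout libraries lay above all 4 others, and the wildtype and heterozygous libraries overlapped. The mean was 2.94 times the wildtype and 2.65 times the heterozygous mean. In log2 the change was 1.52 ± 0.22 against wildtype, with an adjusted p of 0.00160 by limma and a 95% interval of 1.03 to 2.01. Against heterozygous libraries it was 1.37 ± 0.22, with an adjusted p of 0.00280 by limma and an interval of 0.88 to 1.86. These comparisons share the knockout libraries, which differed from each other by 0.68 in log2 (replicate 1 minus replicate 2), against 0.40 in the wildtype pair and -0.18 in the heterozygous pair. Without heterozygous replicate 1 the change against heterozygous was 1.28 and did not pass, with an adjusted p of 0.0558 by limma. The counts behind these values were 390 and 219 reads in wildtype, 302 and 260 in heterozygous, and 1059 and 490 in knockout. The lower knockout library gave an exact Poisson interval of 547 to 654 scaled, and the highest of the others, heterozygous replicate 2, one of 276 to 353, which cover counting error only. In the authors' deposited table Klf5 had an adjusted p of 0.0311 for knockout against wildtype and 0.0560 for knockout against heterozygous.

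Beside this, 12.5% of tested genes passed in knockout against wildtype and 5.42% rose, and 1 of the 8 genes passed. In knockout against heterozygous 1 of the 8 passed, where 12.5% of all tested genes did, 4.39% upward and 8.09% downward. Of the 856 genes that rose against wildtype, 132 had a larger log2 change than Klf5, and of the 692 that rose against heterozygous, 88 did. In heterozygous against wildtype the log2 change of Klf5 was 0.16 ± 0.22 with an adjusted p of 0.823 by limma, and its 95% interval of -0.33 to 0.65 leaves room for a ratio between 0.794 and 1.57.

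**Figure D2:**
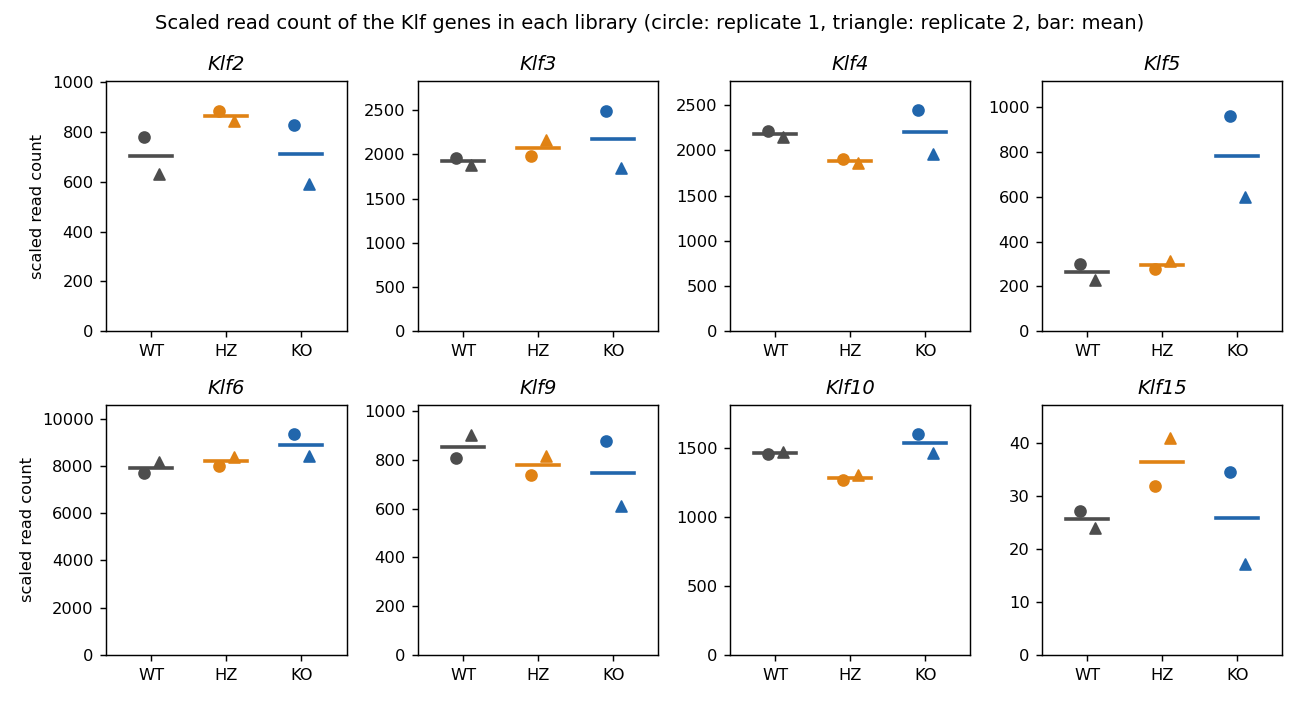
Scaled read count of each Klf gene (vertical axes from 0, one scale per gene) in wildtype (WT), heterozygous (HZ) and knockout (KO) libraries; circles are replicate 1, triangles replicate 2 and bars the mean of 2. Klf5 is at 960 and 599 in knockout against 229 to 313 elsewhere, and every gene is higher in knockout replicate 1 than in replicate 2.

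Klf5 is also an epithelial factor, so markers of other cells were read beside it. Of 10 epithelial and mesothelial markers, Epcam was at 3.61 or less, Krt5 at 5.42 or less and Cdh1 at 11.5 to 21.6 in every library. The summed level of the list was 2740 and 2783 in wildtype, 1216 and 1259 in heterozygous and 2383 and 2063 in knockout. The knockout sums were thus below those of wildtype and above those of heterozygous libraries, the comparisons in which Klf5 rose. Within the list, the keratin gene Krt19 rose in knockout, from 165 and 158 in wildtype and 171 and 154 in heterozygous to 421 and 342. Its log2 change was 1.23 ± 0.15 against wildtype, with an adjusted p of 6.37e-04 by limma. Krt18 and Wt1 fell, and the other 5 tested markers did not pass. Of all tested genes 5.42% rose and 7.1% fell in that comparison. Against heterozygous libraries 4 of the 8 tested markers passed, all higher in knockout, where 4.39% of all tested genes were. The median log2 change of the 8 was 0.71. Besides Krt19 these were the mesothelial genes Msln and Upk3b and the keratin gene Krt14, with log2 changes of 1.18, 0.91 and 1.21. Of these calls Krt19 and Msln held under every alternative, Upk3b had an adjusted p of 0.0521 by limma without heterozygous replicate 1, and Krt14 did not hold without knockout replicate 1 or any 1 of the wildtype and heterozygous libraries (0.0812 to 0.258 by limma). The 5 that passed in heterozygous against wildtype all fell, where 2.74% of all tested genes did. The bone factor Sp7, of the related Sp family, also rose, from 15.5 and 21.9 in wildtype to 56.6 and 69.7 in heterozygous and 131 and 112 in knockout libraries, a log2 change of 2.66 ± 0.25 in knockout against wildtype with an adjusted p of 1.50e-04 by limma. The part of other cells in the Klf5 result was not tested, and in such bulk RNA fewer cells of a type and less RNA per cell cannot be told apart.

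The genes whose centred log2 values over the 6 libraries were most like those of Klf5, among 12774 tested genes with a mean of 50 or more, were Pax1 and Chst1. Their root mean square differences from Klf5 were 0.185 and 0.188. Pax1 was at 85.9 and 74.2 in wildtype, 106 and 106 in heterozygous, and 249 and 204 in knockout. Chst1 was at 321 and 325, at 321 and 296, and at 956 and 671. When each gene was divided by its own SD the nearest were Adra1d, an alpha-1 adrenergic receptor of smooth muscle, at 0.043 and Myo19 at 0.107, so the measure of likeness decided which genes were named. Adra1d was at 779 and 662 in wildtype, 747 and 785 in heterozygous, and 1799 and 1262 in knockout. It was picked for its likeness to Klf5 over these same 6 libraries, so knockout values above the other 4, as for Klf5, follow from that choice.

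Klf4 and Klf2, the pair of family members that overlap in function in endothelium, did not pass in any comparison. Klf4 was at 2212 and 2148 in wildtype, 1904 and 1862 in heterozygous, and 2443 and 1963 in knockout libraries. Both heterozygous libraries were below both groups, whereas the knockout libraries lay on either side of the wildtype pair. The log2 change was 0.01 ± 0.11 in knockout against wildtype (95% interval -0.25 to 0.26, limma adjusted p 0.983). It was -0.21 ± 0.11 in heterozygous against wildtype and 0.22 ± 0.11 in knockout against heterozygous, with adjusted p of 0.382 and 0.267 by limma. The upper end of the interval against wildtype is a ratio of 1.20, below the lower end of 2.05 for Klf5.

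Klf2 was at 781 and 631 in wildtype, 883 and 846 in heterozygous, and 830 and 591 in knockout libraries. Here the heterozygous libraries were above the other 4, and the wildtype and knockout pairs overlapped over most of their range. The log2 change was -0.00 ± 0.17 in knockout against wildtype (95% interval -0.38 to 0.37, limma adjusted p 0.995). It was 0.30 ± 0.17 in heterozygous against wildtype and -0.30 ± 0.17 in knockout against heterozygous, with adjusted p of 0.409 and 0.299 by limma. Klf2 and Klf4 thus had heterozygous values on opposite sides of wildtype. When only the wildtype and heterozygous libraries were fitted, both passed, Klf2 with an adjusted p of 0.0174 and Klf4 with 0.0273 by limma. The log2 changes stayed at 0.30 and -0.21, and the spread between the knockout libraries no longer entered the test. Leaving out either knockout library is not a further test, because 1 knockout library adds nothing to that spread.

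Endothelial and myeloid cells are known to express these genes. The 16 endothelial markers summed to 5217 and 5077 in wildtype, 3679 and 3936 in heterozygous and 3383 and 2915 in knockout, lowest in knockout. Of the 9 that were tested, 1 rose and 3 fell in knockout against wildtype, beside 5.42% and 7.1% of all tested genes. The median log2 change of the 9 was 0.14, with 6 above 0, so the sum did not move as most of them did. Flt1, a VEGF receptor gene that made up most of the wildtype sum, was at 3412 and 3403 in wildtype, 1317 and 1529 in heterozygous, and 660 and 569 in knockout, a log2 change of -2.47 ± 0.11 against wildtype (adjusted p 3.64e-06 by limma). Emcn and Vwf fell too, by 3.97 and 0.92 in log2, and Kdr, another VEGF receptor gene, rose by 1.57. The call of Vwf did not hold without wildtype replicate 1 or 2 (adjusted p 0.0996 and 0.126 by limma) or by DESeq2 (0.0767). Of the same 9, 2 rose and 2 fell in heterozygous against wildtype, beside 5.33% and 2.74% of all tested genes. Their median log2 change was 0.28, with 6 above 0. Other markers of the list were near 0 in every library, with Pecam1 at 9.12 or less, Cldn5 at 0.912 or less and Sox17 at 1.05 or less. The summed level of macrophage and leukocyte markers was 31869 and 31962 in wildtype, 66084 and 61407 in heterozygous and 13480 and 12641 in knockout, and all 16 fell in knockout against wildtype while 14 rose in heterozygous against wildtype. Itgam changed with the smallest p against wildtype, by -1.41 in log2 (adjusted p 3.66e-05 by limma). Klf2 was highest and Klf4 lowest in the group with the most macrophage transcript. The part of these cells in either value was not tested.

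**Figure D3:**
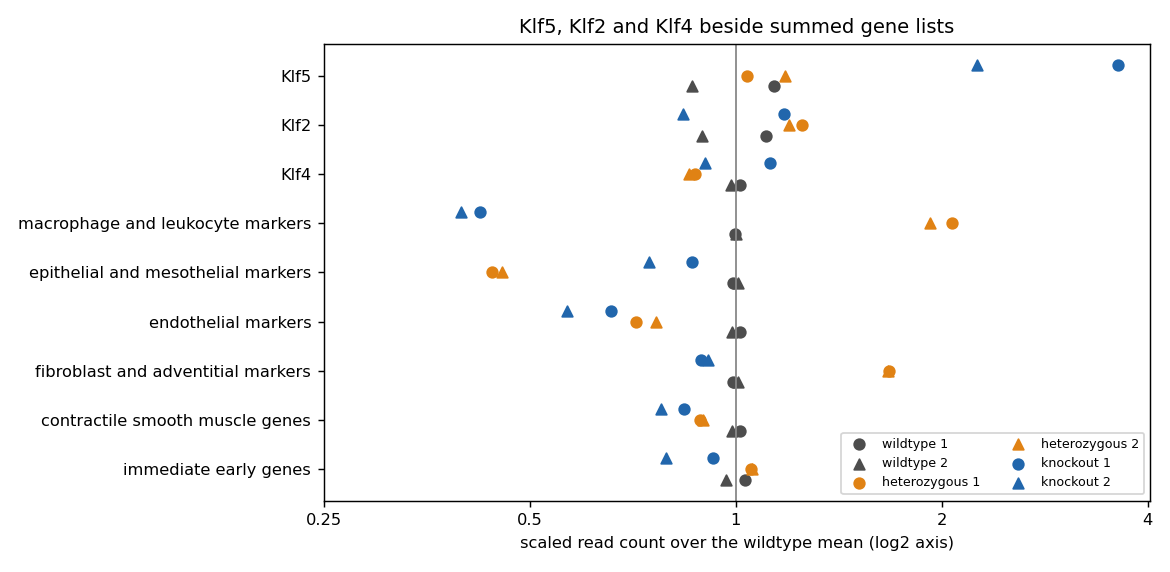
Scaled read count of Klf5, Klf2 and Klf4 and of summed gene lists in each library, divided by the wildtype mean (log2 axis); circles are replicate 1 and triangles replicate 2. Klf5 is at 3.62 and 2.26 times the wildtype mean in knockout, whereas the macrophage sum is at 2.07 and 1.92 in heterozygous and 0.422 and 0.396 in knockout.

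Klf6, the most abundant of the 8, showed the narrowest range relative to its level. It was at 7691 and 8179 in wildtype, 7995 and 8392 in heterozygous, and 9375 and 8422 in knockout libraries. The knockout libraries were above the other 4, only just so for knockout replicate 2. The log2 change was 0.16 ± 0.09 in knockout against wildtype (95% interval -0.04 to 0.37, limma adjusted p 0.304), 0.05 ± 0.09 in heterozygous against wildtype and 0.12 ± 0.09 in knockout against heterozygous. The adjusted p of the latter comparisons were 0.890 and 0.469 by limma.

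Klf3, which represses through CtBP and competes with activating members for CACCC boxes, was at 1962 and 1880 in wildtype, 1978 and 2162 in heterozygous, and 2495 and 1845 in knockout libraries. The knockout libraries held both the highest and the lowest of these values. The log2 change was 0.16 ± 0.14 in knockout against wildtype (95% interval -0.15 to 0.47, limma adjusted p 0.524), 0.11 ± 0.14 in heterozygous against wildtype and 0.05 ± 0.14 in knockout against heterozygous. Neither of the latter passed, with adjusted p of 0.804 and 0.849 by limma.

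Klf10, an early TGF-beta gene that recruits the Sin3 corepressor, was at 1460 and 1472 in wildtype, 1269 and 1306 in heterozygous, and 1606 and 1469 in knockout libraries. As with Klf4, both heterozygous libraries were the lowest. The log2 change was 0.07 ± 0.09 in knockout against wildtype, -0.19 ± 0.09 in heterozygous against wildtype and 0.25 ± 0.09 in knockout against heterozygous. None passed, with adjusted p of 0.709, 0.334 and 0.116 by limma, although the 95% interval of the last, 0.05 to 0.46, lay above 0.

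Klf9, a glucocorticoid-responsive repressor, was at 807 and 902 in wildtype, 739 and 816 in heterozygous, and 876 and 613 in knockout libraries. The groups overlapped in every comparison. The log2 change was -0.22 ± 0.16 in knockout against wildtype, -0.14 ± 0.16 in heterozygous against wildtype and -0.08 ± 0.16 in knockout against heterozygous, with adjusted p of 0.453, 0.781 and 0.795 by limma. Klf15, a glucocorticoid and metabolic factor of muscle, was close to the limit of detection. It was at 27.1 and 24 in wildtype, 31.9 and 40.9 in heterozygous, and 34.4 and 17.1 in knockout libraries, from 14 to 38 reads. The 14 reads of knockout replicate 2 have an exact Poisson interval of 7.65 to 23.5 reads. Its log2 change was -0.07 ± 0.35 in knockout against wildtype, with a 95% interval from -0.86 to 0.73 that covers ratios from 0.549 to 1.66. A change of the size of that in Klf5 lies outside this interval, and changes inside it could not be told from none with these libraries. The heterozygous changes were 0.49 ± 0.35 over wildtype, and -0.55 ± 0.35 for knockout against heterozygous, with adjusted p of 0.577 and 0.381 by limma.

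Over the 8 genes, the median log2 change was 0.04 in knockout against wildtype, 0.08 in heterozygous against wildtype and 0.09 in knockout against heterozygous, and the median over all tested genes was 0.00 in size in each. None of the 8 passed in heterozygous against wildtype, where 8.07% of tested genes did, 5.33% upward and 2.74% downward. By limma, 0 of the 8 also had an unadjusted p under 0.05 there, and edgeR and DESeq2 on the recovered reads called 0. The groups did not overlap for 2 of the 8 in knockout against wildtype (Klf5 and Klf6), against 50.1% of all tested genes. They did not overlap for 5 in heterozygous against wildtype (54.8% of tested genes) and 5 in knockout against heterozygous (50.4%). All 8 genes were higher in knockout replicate 1 than in knockout replicate 2, by 0.13 (Klf10) to 0.97 (Klf15) in log2. Of all tested genes 53.3% were higher in that library. In wildtype 5 of the 8 and in heterozygous 2 of the 8 were higher in replicate 1. For each of the 8 genes the difference between the knockout libraries was larger in size than that between the wildtype or the heterozygous pair.

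**Figure D4:**
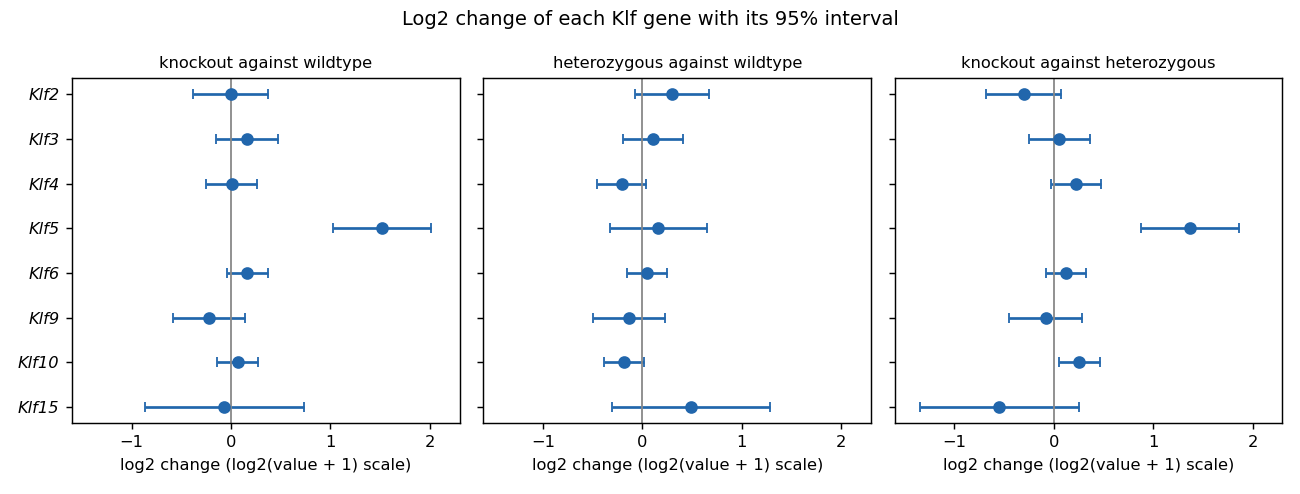
Log2 change of each Klf gene on the log2(value + 1) scale (points) with its 95% interval from the limma fit (bars), for the 3 comparisons. Klf5 is at 1.52 in knockout against wildtype and 1.37 in knockout against heterozygous, and the intervals of all others include 0 except Klf10 in knockout against heterozygous, from 0.05 to 0.46.

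The table held 9 other Klf genes, and 6 of them were tested. Klf8, which like Klf3 binds CtBP, rose in knockout against wildtype. It was at 63.5 and 53.3 in wildtype, 64.8 and 87.8 in heterozygous, and 123 and 116 in knockout libraries, a log2 change of 1.03 ± 0.21 with an adjusted p of 0.0104 by limma. Both knockout libraries were above all others. The call did not hold without wildtype replicate 1 or wildtype replicate 2 (adjusted p 0.0516 and 0.115 by limma). Klf8 is X-linked. Because sex makeup moved with the knockout group, genotype and sex makeup cannot be told apart in either knockout comparison. This holds for Klf8 and for every other gene, Klf5 included. Klf12, also a CtBP-binding repressor and like Klf5 on chromosome 14, was at 206 and 214 in wildtype, 149 and 174 in heterozygous, and 327 and 258 in knockout libraries. It rose in knockout against heterozygous by 0.85 ± 0.16 in log2, with an adjusted p of 0.00690 by limma, and had 0.107 without heterozygous replicate 1. Against wildtype its change was 0.47 ± 0.16, with an adjusted p of 0.0954 by limma. Klf7, Klf11, Klf13 and Klf16 did not pass in any comparison, with log2 changes from -0.24 to 0.25. Klf14 was listed at 0 in every library, Klf1 was at 5.44 or less and Klf17 had 1 read in all.

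The proteins that Klf factors act through were read next. Of 17 corepressors, coactivators and ubiquitin ligases, among them Ctbp1 and Ctbp2 (partners of Klf3), Sin3a (Klf9 and Klf10), Ep300 and Crebbp, and the ligases Wwp1 and Fbxw7, described in human cells as acting on KLF5 and KLF2, 0 passed in knockout against wildtype by limma. In the same comparison 12.5% of all tested genes passed. Of the 17, 2 had an unadjusted p under 0.05 by limma, and edgeR and DESeq2 called 0. Wwp1 was at 1656 and 1771 in wildtype, 1670 and 1741 in heterozygous, and 1323 and 1708 in knockout. Its log2 change against wildtype was -0.19 ± 0.12, with an adjusted p of 0.403 by limma. Fbxw7 was at 475 and 493, at 415 and 454, and at 438 and 490, and neither ligase separated knockout from wildtype. The acetyltransferase gene Kat2b fell in knockout against heterozygous, from 531 and 553 to 276 and 309, and wildtype was between them at 403 and 360. That change was -0.89 ± 0.12 in log2, with an adjusted p of 0.00107 by limma, and held under all 16 alternatives. It was the 1 call of the 17 there, where 8.09% of all tested genes fell. Kat2b also rose in heterozygous against wildtype, by 0.51 in log2 (adjusted p 0.0323 by limma), where 5.33% of all tested genes rose. That call was lost under 5 of 16 alternatives.

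Of the 11 genes of the MEF2 and ERK5 arm that lies above Klf2 and Klf4, 0 passed in knockout against wildtype by limma. In that comparison 12.5% of all tested genes passed. Of the 11, 2 had an unadjusted p under 0.05 by limma, and edgeR and DESeq2 called 0. The kinase gene Mapk7, which encodes ERK5, was at 834 and 803 in wildtype, 905 and 860 in heterozygous, and 1033 and 794 in knockout, and did not pass. Against heterozygous libraries 3 fell, beside 8.09% of all tested genes, and 1 of the 3 calls held under every alternative. In heterozygous against wildtype 2 rose, Hdac9 by 1.03 and Mef2c by 0.78 in log2, beside 5.33%, and neither call held. Hdac9, a class II deacetylase that binds MEF2, changed most against heterozygous libraries. It was at 106 and 93.0 in wildtype, 187 and 222 in heterozygous, and 83.4 and 58.7 in knockout, a log2 change of -1.53 ± 0.21 against heterozygous with an adjusted p of 9.72e-04 by limma. Mef2c, a MEF2 factor, was at 238 and 224, at 411 and 382, and at 260 and 236. It fell by 0.68 in log2 against heterozygous libraries (adjusted p 0.00649 by limma, and 0.107 and 0.0599 without heterozygous replicate 1 or 2). Both genes were highest in heterozygous libraries, the group in which macrophage markers were also highest. The part of macrophages in these values was not tested.

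Klf2, Klf4, Klf6 and Klf10 are often grouped with immediate early genes. Of 26 tested genes of that kind 5 passed in knockout against wildtype, all lower in knockout, with a median log2 change of -0.22, where 7.1% of all tested genes fell. In knockout against heterozygous 9 passed, all lower in knockout, with a median of -0.32, where 8.09% of all tested genes fell. Of those calls, 1 in each comparison held under every alternative. In heterozygous against wildtype 2 rose, Atf3 and Fos, where 5.33% of all tested genes did, and neither call held under every alternative. Egr2 was at 276 and 286 in wildtype, 272 and 236 in heterozygous, and 131 and 86.8 in knockout, a log2 change of -1.39 ± 0.20 against wildtype with an adjusted p of 0.00145 by limma. Atf3 was at 132 and 107, at 237 and 203, and at 44.4 and 59.9, a change of -2.07 ± 0.20 against heterozygous with an adjusted p of 1.28e-04 by limma. Egr1 and Jun, often used as marks of stimulation, did not pass in knockout against wildtype, with log2 changes of -0.08 ± 0.16 and 0.06 ± 0.14. Fos, another such gene, changed by 0.65 in heterozygous against wildtype (adjusted p 0.0422 by limma). In knockout against heterozygous it changed by -0.86 (0.00726 by limma), and neither Fos call held under every alternative. Of 12 tested glucocorticoid response genes 2 fell against wildtype, of which Sgk1 held under every alternative, 1 rose and 1 fell in heterozygous against wildtype, and 4 fell against heterozygous. It was at 2654 and 2643 in wildtype, 2088 and 2104 in heterozygous, and 1620 and 1695 in knockout, a log2 change of -0.68 ± 0.08 with an adjusted p of 7.73e-04 by limma. The receptor gene Nr3c1 had a log2 change of -0.09 ± 0.09 and did not pass. Of 12 TGF-beta early response genes 1 rose against wildtype, beside 5.42% of all tested genes. It was Ski, which encodes a repressor of Smad proteins, with a log2 change of 0.41 ± 0.10 and an adjusted p of 0.0281 by limma. The call was lost under 6 of 16 alternatives, with adjusted p of 0.0859 to 0.289 by limma, among them the omission of any 1 of the wildtype or heterozygous libraries. Between heterozygous and wildtype 3 rose and 1 fell, and 1 fell in knockout against heterozygous, and none of these calls held under every alternative. Smad7, an early target like Klf10, had a log2 change of -0.02 ± 0.13 and did not pass.

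Genes known to lie below Klf4 and Klf5 in smooth muscle were counted last. Of 17 tested contractile genes 9 passed in knockout against wildtype, all lower in knockout, with a median log2 change of -0.45, against 7.1% of all tested genes that fell, and 6 of the 9 held under every alternative. Heterozygous libraries had 5 lower and 1 higher than wildtype by the same test, beside 2.74% and 5.33% of all tested genes. Of these calls, 4 of the 5 and 0 of the 1 held under every alternative. Des, the desmin gene, had the smallest p against wildtype. It was at 5720 and 5098 in wildtype, 974 and 944 in heterozygous, and 924 and 814 in knockout, a log2 change of -2.64 ± 0.10 (adjusted p 1.62e-06 by limma). Actg2, the gamma smooth muscle actin gene, changed by -1.72 ± 0.08 and Mylk, the myosin light chain kinase gene, by -1.37 ± 0.10 (adjusted p 4.12e-06 and 3.95e-05 by limma). Myh11, the smooth muscle myosin heavy chain gene, was at 3851 and 3512 in wildtype, 2193 and 2222 in heterozygous, and 1757 and 1653 in knockout. Its log2 change was -1.11 ± 0.09, with an adjusted p of 8.24e-05 by limma. In heterozygous against wildtype Myh11 also fell, by 0.74 in log2 (adjusted p 0.00124 by limma). Klf5 overlapped wildtype in those libraries, and a link between Klf5 and Myh11 was not tested. Myocd, which encodes myocardin, was at 62.7 and 66.9, at 32.8 and 36.1, and at 20.8 and 30.6. It fell by 1.32 in log2 against wildtype, with an adjusted p of 0.00905 by limma that rose to 0.0803 and 0.102 without wildtype replicate 1 or 2. Of 10 myocardin and SRF cofactor genes 3 fell and 1 rose in that comparison, where 7.1% of all tested genes fell and 5.42% rose, and Srf itself did not pass. Besides Myocd, Csrp1 and Csrp2 fell, by 0.66 and 0.65 in log2, and Elk3 rose by 0.43. None of the 4 calls held under every alternative. Csrp1 had an adjusted p of 0.0675 and 0.0567 by limma without wildtype replicate 1 or 2, Csrp2 had 0.0822 without wildtype replicate 1, and Elk3 had 0.0744 to 0.212 when any 1 of the wildtype or heterozygous libraries was left out.

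Of 12 genes of modulated smooth muscle, 3 rose and 1 fell in knockout against wildtype, beside 5.42% and 7.1% of all tested genes, and 2 of the 3 and the 1 held under every alternative. The 7 that passed in heterozygous against wildtype all rose, beside 5.33% of all tested genes, and 3 of the 7 held. In knockout against heterozygous 2 rose and 5 fell, beside 4.39% and 8.09%. The gene that fell against wildtype was Mmp9, a gelatinase gene, at 94.4 and 76.3 in wildtype, 173 and 177 in heterozygous, and 13.6 and 2.44 in knockout. Fibroblast and adventitial markers, among which Ly6a is also a gene of the modulated list, summed to 5274 and 5375 in wildtype, 8922 and 8888 in heterozygous and 4738 and 4845 in knockout. Of these 10 markers 5 rose in heterozygous against wildtype, beside 5.33% of all tested genes. Among them were Lum, Dpt and Pdgfra, with log2 changes of 1.99, 1.73 and 1.61. In knockout against heterozygous 6 fell, beside 8.09%. In knockout against wildtype 3 fell and 1 rose, beside 7.1% and 5.42%. The 1 that rose was Pdgfra, by 1.88 in log2 (adjusted p 1.65e-05 by limma). The macrophage sum was also highest in heterozygous libraries, at 2.07 and 1.92 times the wildtype mean. The part of either cell type in the counts of modulated genes was not tested. Myh10, the embryonic myosin gene bound by Klf5, was at 13426 and 13297 in wildtype, 17837 and 18250 in heterozygous, and 17262 and 15091 in knockout. Both other groups were above wildtype, but the log2 change of knockout was 0.27 ± 0.09 and did not pass (adjusted p 0.0892 by limma). That of heterozygous was 0.43 ± 0.09 and passed (adjusted p 0.0181 by limma, and 0.168 to 0.204 when any 1 of the wildtype or heterozygous libraries was left out). Pdgfa, a growth factor gene described under Klf5, was at 1273 and 1163, at 1037 and 923, and at 1389 and 810, and did not pass. Ccnd1, the cyclin D1 gene that Klf5 is known to activate, was at 4456 and 4423 in wildtype, 6013 and 6097 in heterozygous, and 9931 and 9235 in knockout. It rose by 1.11 ± 0.08 in log2 against wildtype and 0.66 ± 0.08 against heterozygous, with adjusted p of 4.88e-05 and 5.78e-04 by limma, under all 16 alternatives. Spp1, the osteopontin gene, was at 19258 and 21166, at 41925 and 38073, and at 54824 and 50961, a log2 change of 1.39 ± 0.10 against wildtype with an adjusted p of 3.41e-05 by limma. Ccnd1 and Spp1 were also above wildtype in heterozygous libraries, where the Klf5 values overlapped those of wildtype. The part of Klf5 in the values of either gene was not tested.

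Of 8 endothelial genes known under Klf2 and Klf4, 7 were tested. Nos3, the endothelial nitric oxide synthase gene, was at 4.53 or less in every library. Against wildtype 2 rose and 2 fell, beside 5.42% and 7.1% of all tested genes, and 1 of these calls held under every alternative. Those that fell were S1pr1 and Angpt2, with log2 changes of -0.49 and -0.41 (adjusted p 0.0124 and 0.0360 by limma). Both also fell against heterozygous libraries, with -0.76 and -1.43, and Aqp1 rose there by 1.19. These calls held under every alternative. In heterozygous against wildtype 2 rose, beside 5.33% of all tested genes. They were Angpt2, by 1.01, and Edn1, by 0.55, and only the first held. Thbd, the thrombomodulin gene, was at 5996 and 5247 in wildtype, 6175 and 6111 in heterozygous, and 7329 and 7516 in knockout. It rose by 0.40 in log2 (adjusted p 0.0174 by limma, 0.0525 and 0.244 without wildtype replicate 1 or 2, and 0.0619 without either heterozygous replicate). Aqp1, a water channel gene, was at 478 and 482, at 536 and 533, and at 1141 and 1305, a log2 change of 1.34 ± 0.11 with an adjusted p of 7.11e-05 by limma that held under every alternative. Of 7 tested metabolic genes known under Klf15, 1 fell against wildtype, beside 7.1% of all tested genes, and 1 fell against heterozygous, beside 8.09%. These were the aminotransferase genes Gpt2 (log2 change -0.43, adjusted p 0.0318 by limma) and Bcat2 (-0.43, 0.0449). DESeq2 called neither (adjusted p 0.0617 and 0.144), and both calls were also lost when any 1 of the wildtype or heterozygous libraries was left out (0.0894 to 0.253 for Gpt2 and 0.111 to 0.271 for Bcat2 by limma). In heterozygous against wildtype 0 passed by limma, where 8.07% of all tested genes did. There 0 had an unadjusted p under 0.05 by limma, and edgeR and DESeq2 called 0. The liver enzyme gene Tat was listed at 0.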

How the data were processed

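The authors deposited signal values per gene and library, which are read counts divided by 1 factor per library. The values gave whole reads (within 0.001 of a read) for 100% of genes, so depth was recovered. The table's log2 ratios, adjusted p-values and RPKM are the authors' deposited values, of which only p-values are quoted, and the deposited gene length was used per kilobase. The genome build was mm9, and the tools listed, without role, strand setting or annotation, were HTSeq 0.5.4p3, TopHat2 2.0.4 and DESeq 1.16.0, per the submitters' processing notes. Per the labels' protocols libraries came from 500 ng of total RNA (TruSeq).

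limma 3.58.1 (R 4.3.3) was run on log2(value + 1) of genes that reached 10 scaled in 2 or more libraries, with a mean trend and genotype as the only term (3 residual and 6.17 prior degrees of freedom), with Benjamini-Hochberg adjustment. The script was tested on simulated data. edgeR 4.0.16 and DESeq2 1.42.0 on recovered reads were alternatives. Named genes are the 8 Klf genes, Jag1, passing genes of the other lists, at most 4 of a list by p in a comparison, genes that Klf factors act on or with, and the 2 genes most like Klf5. Not every gene this rule allows is printed. Members and lists were chosen with earlier results of these data known. Other genes named (Ddx3y, Acta2, Tagln, the markers near 0, Egr1, Jun, Smad7, Klf7, Klf11, Klf13, Klf16 and Tat) were chosen after their values were seen. Overlapping or antisense genes cannot be told apart without strand.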

Additional observations from a re-analysis of the deposited data

How the results depend on the processing

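Klf5 passed in knockout against wildtype under all 16 alternatives, with log2 changes of 1.18 to 1.86. With all 6 libraries kept, its adjusted p there was 1.40e-10 by DESeq2, 0.00120 by edgeR and 0.0264 by limma without the mean trend. In knockout against heterozygous it passed under all but 1, the omission of heterozygous replicate 1, with log2 changes of 1.03 to 1.71. Leaving out 1 library moved the number of the 8 Klf genes that passed to between 1 and 3 in knockout against wildtype, 0 and 2 in heterozygous against wildtype, and 0 and 4 in knockout against heterozygous. Without knockout replicate 1, Klf9 passed beside Klf5 against wildtype, and Klf2, Klf9 and Klf15 did against heterozygous. Without knockout replicate 2, Klf3 and Klf6 passed against wildtype, and Klf3, Klf4 and Klf10 against heterozygous. Over all genes these omissions gave 864 to 5605, 320 to 3017 and 806 to 5668 calls. With only the 2 groups compared, heterozygous against wildtype gave 3032 calls, 2 of them Klf genes. A group left with 1 library adds nothing to the spread that the test uses. Fits without 1 knockout library, or without that group, thus hold no difference between knockout libraries. The median absolute log2 difference was largest in that pair, 0.208 against 0.0986 in wildtype and 0.0927 in heterozygous. Its part in these counts was not tested.

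Directions of changes that did not pass turned in places. In knockout against wildtype, Klf2 was at 0.01 by edgeR and DESeq2, and ranged from -0.25 to 0.24 as single libraries were left out. The corresponding ranges were -0.06 to 0.38 for Klf3, -0.15 to 0.16 for Klf4, -0.48 to 0.04 for Klf9 and -0.55 to 0.42 for Klf15. Klf4 was also at -0.02 after quantile normalization, and Klf15 at 0.03 by DESeq2 and after quantile normalization and 0.05 by edgeR. In heterozygous against wildtype the range for Klf5 was -0.04 to 0.36. In knockout against heterozygous it was -0.16 to 0.27 for Klf3 and -0.34 to 0.17 for Klf9.

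The libraries share only a number across groups: deviations of same-numbered libraries correlated at 0.184, 0.261 and 0.13 over 12775 genes, and replicate 1 was the deeper library of each group. With the replicate number as a block, 2487, 1572 and 2510 genes passed in the 3 comparisons, against 1977, 1274 and 1968, and 1, 0 and 1 of the Klf genes. Without division by length the wildtype places became 6 for Klf2, 3 for Klf3, 2 for Klf4 and 4 for Klf10, and the 2 genes nearest Klf5 shared 0 members with those found on the SD scale. Depth limits Klf15, with 14 to 38 reads.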
